A study of Homo sapiens with 10 samples.

Results

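The genes of the MAP kinase cascade were examined for HER2 binding and for the enhancer mark H3K4me1. A list of 41 genes (the members) was used, out of 20090 protein-coding genes: 12 MAP kinases, 7 MAP kinase kinases (MAP2Ks), 15 MAP kinase kinase kinases (MAP3Ks), the RAF kinases ARAF and BRAF, and 5 MAP4Ks. Each gene was taken with its body and 10 kb on each side (hg19), called its window. HER2 was mapped by ChIP-exo, in which immunoprecipitated DNA is trimmed by an exonuclease before sequencing. SKBR3 and BT474, established human breast cancer lines with an amplified ERBB2 locus, were kept in serum and given vehicle (H2O) or EGF at 100 ng/ml for 3 hours. Each of these 4 conditions had 1 peak list and no replicate, so no test compared treatments or lines for HER2. Each line also had 2 replicate ChIP-seq libraries of H3K4me1. The labels describe those cells as asynchronous, while the study's text describes them as given EGF. Nothing in the labels says that the replicates came from separate cultures, so p-values measure the spread between these libraries, which may be technical.

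In the MAP kinase cascade, each tier of kinases phosphorylates the next. MAP4Ks and small GTPases act on MAP3Ks and RAF kinases, these on MAP2Ks, and the MAP2Ks on the ERK, JNK, p38 and ERK5 kinases, which phosphorylate transcription factors and other kinases. HER2 is a receptor tyrosine kinase of the EGF receptor family, and signalling from these receptors at the plasma membrane runs in part through RAF, MAP2K1 and MAP2K2 to ERK. H3K4me1 marks enhancers, including those within introns.

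The 6 sites below are among the 7 in member windows where the core CGTNTGC, the sequence that the study named, lay on either strand within 50 bp of the midpoint of a HER2 peak. They are shown because the study named this core at its HER2 sites. Each sequence shown is 41 bases of GRCh37, the same assembly as hg19, on the strand that reads CGTNTGC, with the core in capitals.
MAP2K6, intron, chr17:67461297-67461337, minus strand: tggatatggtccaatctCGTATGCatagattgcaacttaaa
MAP3K13, intron, chr3:185024791-185024831, plus strand: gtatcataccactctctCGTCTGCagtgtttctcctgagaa
MAP3K2, intron, chr2:128112884-128112924, minus strand: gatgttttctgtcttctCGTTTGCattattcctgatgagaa
MAP4K1, intron, chr19:39103530-39103570, minus strand: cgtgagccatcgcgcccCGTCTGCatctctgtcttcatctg
MAPK9, downstream flank, chr5:179653001-179653041, plus strand: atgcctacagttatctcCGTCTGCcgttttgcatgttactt
MAPK11, upstream flank, chr22:50712592-50712632, minus strand: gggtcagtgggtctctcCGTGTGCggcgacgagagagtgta

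A further pair of sites is given without capitals because no core lay within 50 bp of their midpoints. They are shown as the highest scoring peak of a member in SKBR3 EGF (MAP3K13) and in BT474 EGF (MAPK8), and both are read on the plus strand at the midpoint of the SKBR3 EGF peak.
MAP3K13, intron 1, chr3:185082238-185082278: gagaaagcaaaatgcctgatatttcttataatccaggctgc
MAPK8, intron 1, chr10:49547812-49547852: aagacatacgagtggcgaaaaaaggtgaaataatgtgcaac

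HER2 peaks were found in the windows of 24 of the 41 members. In SKBR3, 2 members had a peak with vehicle and 4 with EGF. In BT474, 11 members had a peak with vehicle and 23 with EGF. These counts are 4.88% of the members (95% Wilson interval 1.35 to 16.1%) in SKBR3 vehicle, where 6.31% of all protein-coding genes had a peak, and 9.76% (3.86 to 22.5%) in SKBR3 EGF, where 6.73% of all genes had one. They are 26.8% (15.7 to 41.9%) in BT474 vehicle against 19.7% of all genes, and 56.1% (41.0 to 70.1%) in BT474 EGF against 44.6% of all genes. The intervals cover counting error only, and each held the share over all genes.

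The windows of the members were longer than those of most genes, with a median of 93.9 kb against 47.3 kb. When each member was given the share of genes with a peak in its own class of window length, of 4 classes, 3.86, 3.94, 11.6 and 23.1 members corresponded to these shares in SKBR3 vehicle, SKBR3 EGF, BT474 vehicle and BT474 EGF. The counts of 2, 4, 11 and 23 lay within 2 members of them. Members with a peak in any list had a median window of 139 kb, and those with no peak one of 50.6 kb.

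**Figure D1:**
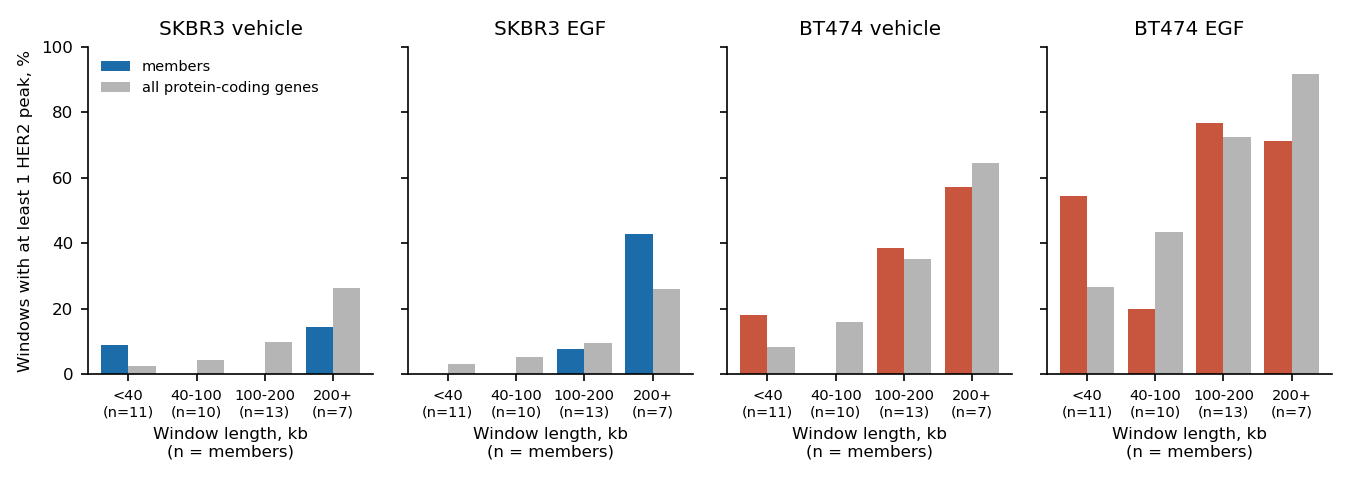
Percent of windows with at least 1 HER2 peak (y axis) by class of window length in kb (x axis), for members (coloured bars) and all protein-coding genes (grey bars), in the 4 HER2 lists. In BT474 EGF the members lay above all genes in the shortest class, at 54.5% against 26.7%, and below them in the longest, at 71.4% against 91.9%.

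By length, the member windows held 0.0416 peaks per 100 kb in SKBR3 vehicle (exact 95% Poisson interval 0.00503 to 0.15) and 0.0831 in SKBR3 EGF (0.0227 to 0.213). The windows of all genes held 0.0899 and 0.09. In BT474 the density over members was 0.249 with vehicle (0.129 to 0.436) and 0.977 with EGF (0.718 to 1.3), against 0.314 and 1.06 over all genes. The density over members was thus below that over all gene windows in each of the 4 lists, with an interval that held the value of all genes each time.

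The number of peaks in member windows went from 2 with vehicle to 4 with EGF in SKBR3, and from 12 to 47 in BT474. For BT474 this is a ratio of 3.92, beside 3.43 for the whole list, which went from 8559 to 29326 peaks. For SKBR3 it is a ratio of 2.0, made of single peaks, beside 0.971 for the whole list of 2596 and 2520 peaks. When each list was reduced to the 2520 peaks with the highest scores, 2, 4, 4 and 4 members had a peak in SKBR3 vehicle, SKBR3 EGF, BT474 vehicle and BT474 EGF, with 6.11 to 7.12% of all genes. The larger counts in BT474 thus went with the longer lists.

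**Figure D2:**
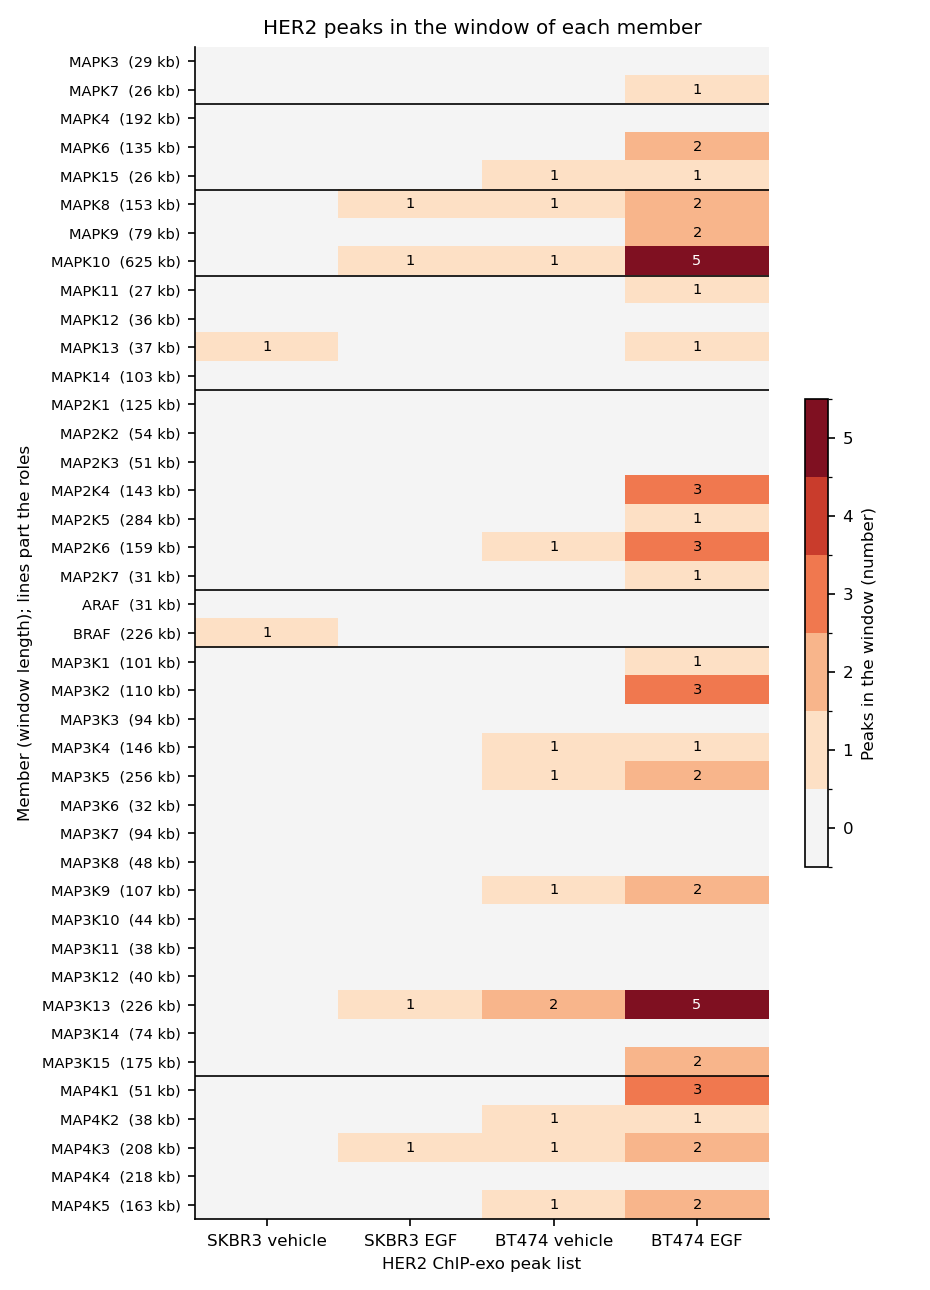
Number of HER2 peaks in the window of each of the 41 members (rows, with window length in kb, grouped by role) in each HER2 list (columns). MAP3K13 and MAPK10 have 5 peaks each in BT474 EGF, and no member has a peak in all 4 lists.

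The peaks of the members were combined into 49 sites by overlap. Of these, 34 were present in BT474 EGF alone, 9 in both BT474 lists, 3 in SKBR3 EGF and both BT474 lists, 1 in SKBR3 EGF and BT474 EGF, and 2 in SKBR3 vehicle alone. All 12 member peaks of BT474 vehicle were overlapped by a BT474 EGF peak, as were 91.2% of the peaks in the whole vehicle list. All 4 member peaks of SKBR3 EGF were overlapped by a BT474 EGF peak, as were 84.7% of that whole list. Neither of the member peaks in SKBR3 vehicle was found in another list, while 43.1% of the whole SKBR3 vehicle list overlapped a BT474 EGF peak. Introns held 39 of the 47 member peaks in BT474 EGF, 4 lay in the upstream flank and 4 in the downstream flank. All 12 in BT474 vehicle and all 4 in SKBR3 EGF lay in introns. The share in introns was not computed over all gene windows, so these counts show no preference for introns.

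Of the 3 JNK genes, 2 had a HER2 peak in SKBR3 EGF, 2 in BT474 vehicle and 3 in BT474 EGF, with 9 peaks in all in that list. Over all genes, 6.73, 19.7 and 44.6% had a peak in these lists. MAPK8 and MAPK10, the 2 with a peak in SKBR3 EGF, have windows of 100 to 200 kb and of 200 kb or more. Of all genes in these classes, 9.67 and 26.0% had a peak in SKBR3 EGF, and 35.3 and 64.6% in BT474 vehicle. The JNK windows held 1.05 peaks per 100 kb in BT474 EGF, beside 1.06 over all gene windows. MAPK8, which encodes JNK1, had 1 intron 1 site in SKBR3 EGF (chr10:49547703-49547961) and in both BT474 lists. Its score was 84.0 in SKBR3 EGF, 163.5 in BT474 vehicle and 482.0 in BT474 EGF, ranks of 1743 of 2520, 920 of 8559 and 221 of 29326. The score is compared by rank within a list only, since its scale is not stated. At rank 221, this was the highest placed member peak of BT474 EGF.

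MAPK10, which encodes JNK3, has the longest window of the members, at 625 kb. It had 1 peak in SKBR3 EGF, 1 in BT474 vehicle and 5 in BT474 EGF. The site common to these 3 lists (chr4:87125627-87125826 in SKBR3 EGF) lay in intron 2 at ranks of 1342, 6216 and 4011. The other 4 lay in introns outside the canonical transcript, and 3 of them lay together (chr4:87458280-87464583). MAPK9, which encodes JNK2, had 2 peaks in BT474 EGF, and none in the other lists.

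Of the 4 p38 genes, MAPK11 and MAPK13 had a HER2 peak in BT474 EGF, where 44.6% of all genes had one. By length, the p38 windows held 0.983 peaks per 100 kb in BT474 EGF, beside 1.06 over all gene windows. MAPK11, the gene of p38 beta and one of those that the study names, had 1 peak, in BT474 EGF (chr22:50712505-50712704), 3.41 kb upstream of the gene. Its score of 14.5 ranked 28957 of 29326, so that about 1.18% of the list scored lower. It lay 0.904 and 1.7 kb from the nearest H3K4me1 islands of the BT474 replicates. The study names MAPK11 and MAP3K13 among genes near sites that HER2 and H3K4me1 share, at up to 10 kb. With an overlap of 1 bp, the MAPK11 peak lay in no island of either line, while 1 MAP3K13 site did so in both lines. The study does not state its rule for a shared site. MAPK13, the gene of p38 delta, had 1 peak in SKBR3 vehicle, 2.52 kb downstream of the gene (score 21.5, rank 2336 of 2596), and another in BT474 EGF, 1.98 kb upstream (score 43.0, rank 19107). MAPK12 and MAPK14 had no peak. The windows of MAPK11 and MAPK12 overlap, as do those of MAPK13 and MAPK14.

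The remaining terminal kinases had few peaks. MAPK7, the gene of ERK5, had 1 in BT474 EGF, 5.33 kb upstream of the gene at rank 29003. Of the atypical kinases, MAPK6 had 2 peaks in BT474 EGF, and MAPK15 had 1 in each BT474 list. MAPK3, the gene of ERK1, had none in any list.

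Of the 7 MAP2Ks, 4 had a peak, all in BT474, where 44.6% of all genes had one with EGF. By length, the MAP2K windows held 0.945 peaks per 100 kb in BT474 EGF, beside 1.06 over all gene windows. MAP2K6, an activator of the p38 kinases, had 1 peak with vehicle and 3 with EGF. The site present with both treatments lay in intron 1 (chr17:67461199-67461466 with vehicle) and held the core in the form CGTATGC, the only member site to do so. It ranked 1718 of 8559 with vehicle and 19336 of 29326 with EGF, in lists of unequal length whose ranks were not compared. MAP2K4, which acts on JNK and p38, had 3 peaks with EGF, 2 in introns and 1 in the downstream flank, with scores of 31.0 to 53.5. MAP2K5 and MAP2K7 had 1 each with EGF. MAP2K1, MAP2K2 and MAP2K3 had none in any list, nor did ARAF. BRAF, which acts on MAP2K1 and MAP2K2, had 1 peak, in SKBR3 vehicle, in intron 1 (chr7:140553328-140553554), with a score of 19.5 that ranked 2423 of 2596.

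Of the 15 MAP3Ks, 1 had a peak in SKBR3 EGF, 4 in BT474 vehicle and 7 in BT474 EGF. The shares over all genes in these lists were 6.73, 19.7 and 44.6%. By length, the MAP3K windows held 1.01 peaks per 100 kb in BT474 EGF, beside 1.06 over all gene windows. MAP3K13, which activates JNK and is named by the study, had 1 peak in SKBR3 EGF, 2 in BT474 vehicle and 5 in BT474 EGF. The SKBR3 EGF peak (chr3:185082111-185082405) lay 1.23 kb from the nearest annotated start site of a MAP3K13 transcript, in intron 1 of the canonical transcript, with a score of 249.5 that ranked 418 of 2520. The BT474 EGF peak at the same place scored 117.0 and ranked 5310 of 29326. The MAP3K13 peak placed highest in BT474 EGF was another one (chr3:185057850-185058160), which ranked 3838 of 8559 with vehicle and 902 of 29326 with EGF. MAP3K2, which acts on MAP2K5, had 3 peaks in BT474 EGF and none in the other lists, with 2 in intron 1 and 1 lying 6.33 kb upstream.

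Of the 5 MAP4Ks, 4 had a peak in BT474 EGF, where 44.6% of all genes had one. By length, the MAP4K windows held 1.18 peaks per 100 kb in that list, beside 1.06 over all gene windows. MAP4K3 had 1 site, in intron 24, present in SKBR3 EGF (chr2:39504287-39504486), BT474 vehicle and BT474 EGF, at ranks of 1031, 1488 and 3899. A second MAP4K3 peak lay in intron 1 in BT474 EGF alone. MAP4K1, a kinase known mainly from blood cells, had 3 peaks in its 51.2 kb window, all in BT474 EGF and all in introns. MAP4K4 had none in any list, in a window of 218 kb.

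Among 30 other genes of the pathway (scaffolds, MAP kinase-activated kinases and further upstream kinases), 3, 5, 10 and 16 had a peak in SKBR3 vehicle, SKBR3 EGF, BT474 vehicle and BT474 EGF. These are 10.0, 16.7, 33.3 and 53.3%, beside 6.31, 6.73, 19.7 and 44.6% of all genes. They were not matched for window length. TNIK, a kinase related to the MAP4Ks, and TAB2, an adaptor of MAP3K7, had a peak in each of the 4 lists.

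The core CGTNTGC lay within 50 bp of the midpoint of 0 of 2 member peaks in SKBR3 vehicle, 0 of 4 in SKBR3 EGF, 1 of 12 in BT474 vehicle and 7 of 47 in BT474 EGF. The last share is 14.9% (95% Wilson interval 7.41 to 27.7%), beside 7.48% of all peaks in that list, which the interval held. It was 0.956% in windows placed 1 kb to either side of the peaks of the list. The study derived this core from the HER2 peaks of these same experiments, so an excess over those windows was fixed in advance. In SKBR3 EGF the core was found at 302 of 2520 peaks. The shorter string CTCGT, which was searched after these sequences had been seen and can share its last 3 letters with the core, lay at 16 of the 47 member peaks (34.0%), 22.3% of all peaks in BT474 EGF and 3.17% of the windows 1 kb away. A match describes the letters and is not evidence of contact by HER2.

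The study asked whether HER2 sites lie at enhancers, so member peaks were overlapped with H3K4me1 islands. In the same line, 0 of 2 member peaks of SKBR3 vehicle lay in an island of either replicate. For SKBR3 EGF, 2 of 4 lay in an island of replicate 1 and 1 of 4 in replicate 2. For BT474 vehicle, 0 of 12 did so in either replicate, which allows a share of up to 25.0%, beside 17.8% ± 0.909 (SD, n = 2) of the peaks in all gene windows. For BT474 EGF, the share was 11.7% ± 1.5 (SD, n = 2), with 6 of 47 peaks in replicate 1 and 5 of 47 in replicate 2, beside 16.2% ± 0.791 over all gene windows. The sites of MAP4K5 (chr14:51012240-51012457), MAP2K7 (chr19:7985905-7986156), MAP4K3 (chr2:39616400-39616599), MAP3K13 (chr3:185082112-185082399) and MAP3K2 (chr2:128112824-128113063) lay in islands of both BT474 replicates.

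The MAP3K13 site found in SKBR3 EGF and BT474 EGF lay in an island of each of the 4 libraries. These islands were 7.2 and 11.4 kb long with 604 and 711 reads in the SKBR3 replicates, and 4.6 and 6.4 kb long with 463 and 455 reads in the BT474 replicates. The MAPK8 site lay in an island of SKBR3 replicate 1 alone, 14.4 kb long with 610 reads. It was 0.102 kb from one in SKBR3 replicate 2 and 0.239 kb from one in each BT474 replicate.

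The islands of the other line gave a different count for the BT474 peaks of the members. Of the 12 peaks in BT474 vehicle, 6 lay in an SKBR3 island of either replicate and 0 in a BT474 island of either replicate. Over all gene windows the shares were 20.3% and 20.7%. Of the 47 in BT474 EGF, 16 lay in an SKBR3 island and 6 in a BT474 island, 34.0% and 12.8%, beside 19.1% and 18.8% over all gene windows. The 6 vehicle peaks belong to 5 genes: 2 to MAP3K13 and 1 each to MAPK8, MAP3K9, MAP2K6 and MAPK15. Those of MAPK8, MAP3K9 and MAPK15 and 1 of MAP3K13 lay only 0.205 to 0.718 kb from the nearest island of each BT474 replicate. The other MAP3K13 peak lay 7.77 and 6.57 kb away, and that of MAP2K6 30.4 and 29.8 kb. All 5 BT474 EGF peaks of MAP3K13 lay in SKBR3 islands, and 1 of them lay in BT474 islands. This comparison was chosen after the values were seen, the peaks of 1 gene share its surroundings, and no test was made.

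**Figure D3:**
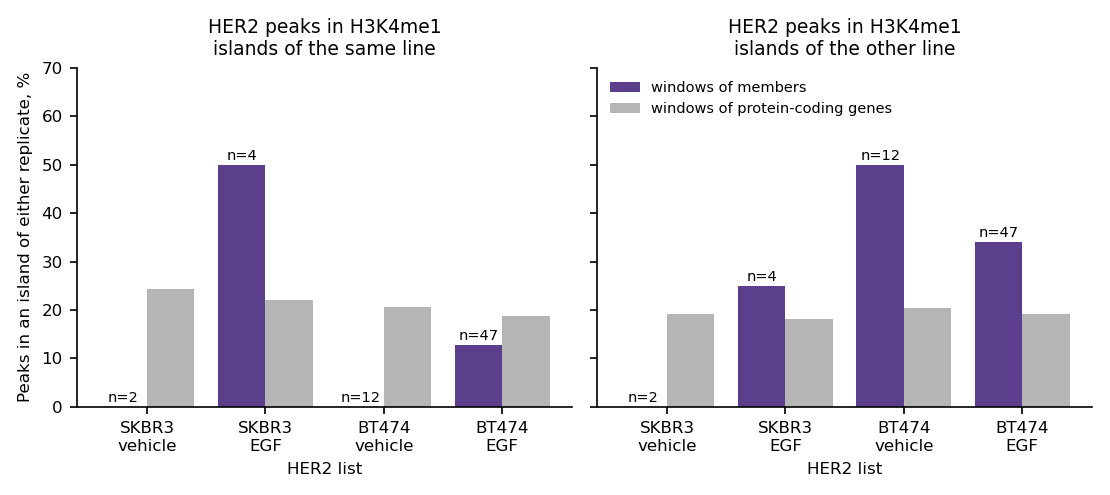
Percent of HER2 peaks (y axis) that lie in an H3K4me1 island of either replicate of the same line (left) or of the other line (right), for peaks in member windows (purple, with their number) and in windows of all protein-coding genes (grey), by HER2 list (x axis). For BT474 vehicle 0 of 12 member peaks lie in BT474 islands and 6 of 12 in SKBR3 islands. Some of these 6 lie within 0.718 kb of a BT474 island.

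H3K4me1 was then compared between the lines over the whole window of each member. The islands held 15636057 and 15314195 reads in the SKBR3 replicates and 18713926 and 15097156 in the BT474 replicates. As a check on the labels, the window of ERBB2, the gene of HER2, was covered by islands over 98.4 and 98.1% in SKBR3 and over 100.0% in both BT474 replicates. The progesterone receptor gene PGR was covered over 3.66 and 3.49% in SKBR3 and over 88.2 and 87.6% in BT474, the line known to express hormone receptors. ESR1 was covered over 20.4 and 20%, and over 26.5 and 28.0%.

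Islands covered a median of 17.7 and 18.1% of a member window in the SKBR3 replicates and 18.6 and 18.3% in the BT474 replicates. Over all protein-coding genes the medians were 10.8 and 11.4%, and 13.1 and 12.4%. Over the 30 other genes of the pathway they were 19 and 19.7%, and 18.1 and 16.8%. These medians were not matched for window length, and the genes with no island were kept in them. The lowest cover was that of ARAF and MAP3K15 in SKBR3, where no island was listed in either replicate. The highest was 73.3%, for MAP3K12 in BT474 replicate 1, beside 52.5% in replicate 2.

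**Figure D4:**
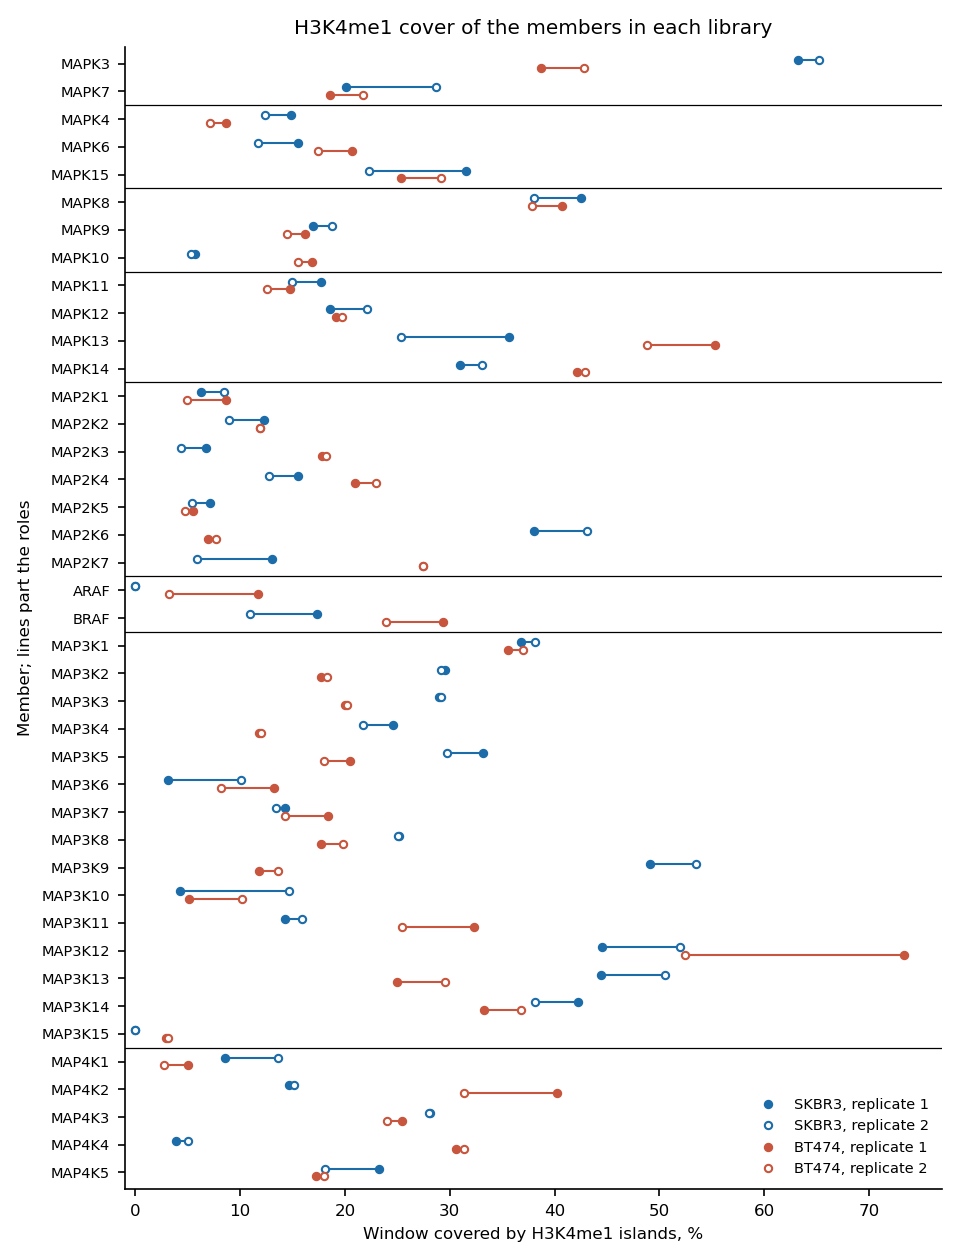
Percent of the window of each member covered by H3K4me1 islands (x axis) in the 2 replicates of SKBR3 (blue) and of BT474 (red), with lines joining the replicates of a line. MAP2K6, MAP3K9 and MAP3K13 have higher cover in both SKBR3 replicates, and MAP4K4, MAP4K2 and MAPK13 in both BT474 replicates.

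Reads of the islands with a midpoint in the window were tested over 17213 genes with edgeR's quasi-likelihood test and Benjamini-Hochberg adjustment. Of the 41 members, 9 had more reads in SKBR3 and 12 more in BT474, beside 26.9% and 33.9% of all genes tested. The members' median log2 difference (SKBR3 minus BT474) was -0.01, beside -0.20 over all genes. Cover was tested over 17850 genes with limma. By cover, 10 members were higher in SKBR3 and 10 in BT474, beside 22.3% and 29.8% of all genes. By both measures 16 members passed in the same direction, 0 in opposite directions, and 16 members passed by neither. Without 1 library at a time, the counts by reads were 6 to 11 and 5 to 13, and the counts by cover 2 to 4 and 4 to 6. The fall to 5 members with more reads in BT474 came without BT474 replicate 1 and without BT474 replicate 2, and the counts by cover fell whichever of the 4 libraries was left out.

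Of the MAP3Ks, 6 of 15 had more reads in SKBR3 and 2 more in BT474. Of the MAP2Ks, 1 of 7 had more in SKBR3 and 3 in BT474. Of the p38 genes, 2 of 4 had more in BT474 and 0 in SKBR3, and these 2, MAPK13 and MAPK14, have overlapping windows. Both RAF genes had more reads in BT474, while 0 of them passed by cover. The JNK genes gave 1 of 3 with more in BT474, the MAP4Ks 1 with more in SKBR3 and 2 with more in BT474 out of 5. Among the 30 other genes of the pathway, 8 had more reads in SKBR3 and 7 in BT474. Over all genes tested, 26.9% had more reads in SKBR3 and 33.9% in BT474. The tiers are small, and their counts were not tested against these shares.

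MAP2K6 had the largest excess in SKBR3. Its window held 3453 and 3263 island reads in the SKBR3 replicates and 608 and 536 in the BT474 replicates, so the lines did not overlap. The log2 difference after scaling for library size was 2.82 (SE 0.09, n = 2 per line, adjusted p = 0.0012 by edgeR). Islands covered 38.1 and 43.1% of the window in SKBR3 and 6.91 and 7.67% in BT474. The HER2 site of BT474 that carries the core lay in the SKBR3 islands, 19.0 and 12.6 kb long, and 30.4 and 29.8 kb from the nearest BT474 islands.

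MAP3K9, a mixed-lineage kinase upstream of JNK, had 1723 and 1834 reads in SKBR3 and 749 and 627 in BT474 (log2 1.64, SE 0.07, adjusted p = 0.00142, edgeR). Its cover was 49.1 and 53.5% in SKBR3 against 11.8 and 13.6% in BT474. MAP3K4, which acts on the p38 and JNK branches, had 1305 and 1135 reads against 712 and 608 (log2 1.15, SE 0.11, adjusted p = 0.00358, edgeR). The islands within 1 Mb of MAP3K4 were themselves denser in reads in SKBR3, by 0.42 on the log2 scale, and with scaling to that density the difference was 0.73 (adjusted p = 0.0113, edgeR). MAP3K3 had 1563 and 1465 reads in SKBR3 and 924 and 811 in BT474, at a log2 difference of 1.07 (SE 0.09). It had no HER2 peak in any list.

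MAP3K13 held 5973 and 6058 reads in SKBR3, more than any other member, and 3774 and 3278 in BT474. Its log2 difference was 1.04 (SE 0.06, adjusted p = 0.00185, edgeR), and its cover was 44.4 and 50.5% in SKBR3 against 24.9 and 29.5% in BT474. The density of reads in the islands around it differed little between lines, at -0.03 on the log2 scale. These 5 genes kept their call without each library in turn and under every other alternative for reads.

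MAPK7 had 241 and 296 reads in SKBR3 and 213 and 181 in BT474, a log2 difference of 0.71 (SE 0.19, adjusted p = 0.0401, edgeR). The groups did not overlap. Over the gene body alone the direction turned (log2 -8.81, adjusted p = 0.00504, edgeR), with no SKBR3 island midpoint in the body, so that the size rests on the prior count. Over the whole window, the call was lost without SKBR3 replicate 2 (adjusted p = 0.061), without BT474 replicate 1 (0.178) and without BT474 replicate 2 (0.161). Its cover, 20.1 and 28.7% in SKBR3 and 18.6 and 21.7% in BT474, overlapped between the lines.

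Of the members with more reads in BT474, MAP4K4, a kinase upstream of JNK, had the largest difference for which both lines held islands. It had 334 and 408 reads in SKBR3 and 3355 and 2778 in BT474, a log2 difference of -2.78 (SE 0.13, adjusted p = 0.00143, edgeR). Islands covered 3.86 and 5.05% of its window in SKBR3 and 30.6 and 31.3% in BT474, and no HER2 list had a peak there. MAP4K2 had 105 and 114 reads against 697 and 528 (log2 -2.21, SE 0.13, adjusted p = 0.00194, edgeR). MAP2K3, an activator of p38 like MAP2K6, had 83 and 67 reads in SKBR3 and 456 and 379 in BT474. Its log2 difference was -2.20 (SE 0.20), opposite in direction to that of MAP2K6. MAPK10 had 1470 and 1176 reads against 5459 and 4410 (log2 -1.63, SE 0.14, adjusted p = 0.00324, edgeR). These 4 genes kept their call without each library in turn.

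No SKBR3 island had its midpoint in the windows of ARAF and MAP3K15, so no fold is given. ARAF had 137 and 46 reads in the BT474 replicates (adjusted p = 0.0113, edgeR), and its call was lost without BT474 replicate 1 (0.376) and without BT474 replicate 2 (0.175). MAP3K15, whose product belongs to the ASK kinases, had 272 and 225 (adjusted p = 0.00341, edgeR), with 0.0742 and 0.0796 without BT474 replicate 1 and 2. The 2 HER2 peaks of MAP3K15 in BT474 EGF lay 8.04 and 16.1 kb from the nearest BT474 islands, and 139 to 199 kb from the nearest SKBR3 islands.

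**Figure D5:**
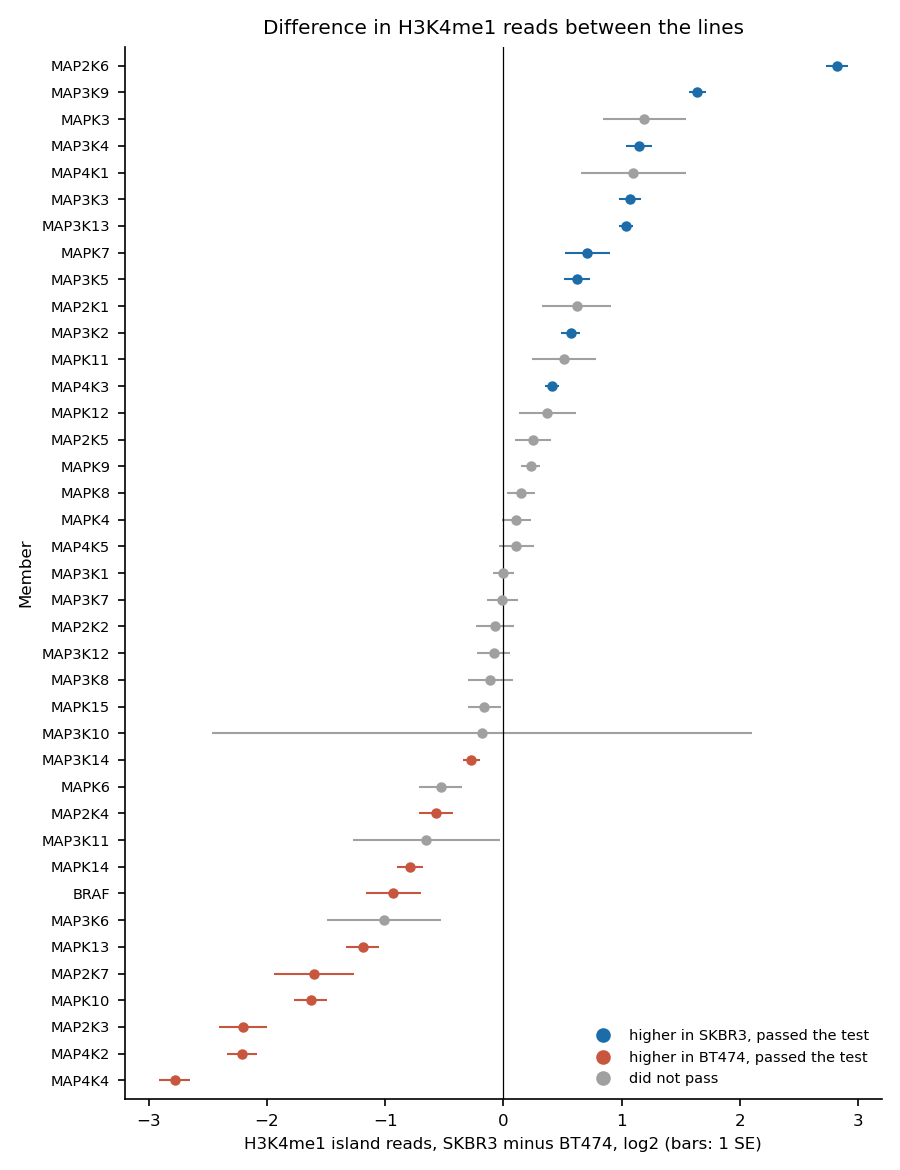
Log2 difference in H3K4me1 island reads (SKBR3 minus BT474, x axis) with bars of 1 SE for the 39 members with islands in both lines (rows, in order of the difference). Blue points passed edgeR's test with more reads in SKBR3, red points with more in BT474, and grey points did not pass. The members run from MAP2K6 at 2.82 to MAP4K4 at -2.78.

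The other 3 members with more reads in SKBR3 were MAP3K5, MAP3K2 and MAP4K3, at log2 differences of 0.62, 0.57 and 0.41. MAP3K2 had 972 and 953 reads in SKBR3 and 889 and 680 in BT474. MAP4K3 had 2674 and 2579 against 2606 and 2164, so the reads as deposited overlapped and the scaled reads did not. The other 6 with more reads in BT474 were MAP2K7, MAPK13, BRAF, MAPK14, MAP2K4 and MAP3K14, at log2 differences of -1.60 to -0.27. MAPK13 had 537 and 436 reads in SKBR3 and 1431 and 1248 in BT474 (log2 -1.19, SE 0.14, adjusted p = 0.00527, edgeR). BRAF had 1463 and 984 against 3270 and 2377 (log2 -0.93, SE 0.23, adjusted p = 0.0358, edgeR), and its call was lost without BT474 replicate 1 (0.152) and without BT474 replicate 2 (0.119). Of these 9 members, MAPK13 kept its call without each library in turn. MAP4K1 had 137 and 276 reads in SKBR3 and 139 and 95 in BT474 and did not pass (adjusted p = 0.104, edgeR).

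MAPK11 did not pass by either measure. It had 160 and 217 reads in SKBR3 and 191 and 131 in BT474, and its log2 difference was 0.51 (SE 0.27, adjusted p = 0.181, edgeR). MAPK8 did not pass, at 3038 and 2532 reads in SKBR3 and 3225 and 2823 in BT474 (log2 0.15, SE 0.12, adjusted p = 0.366, edgeR). MAPK3 had 976 and 1017 reads against 403 and 618 and did not pass by reads (adjusted p = 0.0537, edgeR), while its cover of 63.2 and 65.2% against 38.7 and 42.8% did (adjusted p = 0.00749, limma). MAP2K1 and MAP2K2 passed by neither measure.

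A long island can have its midpoint outside a window that it covers. ERBB2 itself had 0 and 0 reads by midpoint in SKBR3 and 85308 and 70638 in BT474, although its window was covered in both lines, and 12343 and 12050 against 22540 and 18664 with reads shared out by overlap. MAP3K10 had 0 reads in SKBR3 replicate 1, where 4.26% of its window was covered. With island reads shared out by overlap instead, 10 members had more in SKBR3 and 13 more in BT474. A difference between the lines in copy number and one in the mark at each copy cannot be told apart from these reads. When reads were scaled to the density of the islands within 1 Mb, 13 members had more in SKBR3 and 10 more in BT474, and 2 calls were lost, those of BRAF (log2 -0.65, adjusted p = 0.0906, edgeR) and MAP3K14 (log2 -0.14, adjusted p = 0.206, edgeR). With that scaling 4 further members passed with more reads in SKBR3: MAPK3, MAPK4, MAPK8 and MAPK9, at log2 differences of 1.34, 0.53, 0.36 and 0.29 (adjusted p = 0.0323 to 0.0451, edgeR).

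The members with more H3K4me1 reads in SKBR3 were set beside the HER2 peaks of BT474. Of these 9 members, 8 had a BT474 EGF peak (88.9%) and 6 a BT474 vehicle peak (66.7%). Over all genes with more reads in SKBR3, the shares were 49.7% and 23.3%. Of the 12 members with more reads in BT474, 6 had a BT474 EGF peak (50%) and 2 a BT474 vehicle peak (16.7%), beside 50.5% and 25.2% of all such genes. The first 9 had a median window of 146 kb, the other 12 one of 88.7 kb, and all genes with more reads in SKBR3 one of 63.1 kb. This comparison was also chosen after the values were seen and was not tested.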

How the data were processed

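HER2 ChIP-exo lists and H3K4me1 ChIP-seq islands were used, and samples were grouped by line, treatment and antibody as labelled. The authors deposited HER2 peaks as intervals with a score of unstated scale in steps of 0.5, and H3K4me1 islands as whole read counts without scaling for depth. Neither has a header. The study's methods name bowtie2, MACS2 and SICER with hg19, and the removal of blacklisted and high-input regions, whereas the submitters' processing notes name BWA 0.5.9, MACS 1.4.1, SICER 1.1 and GRCh37. A removed region holds no peak, and only islands above the caller's threshold are listed. The depth of the HER2 lists is unknown. The 2 input samples and the T47D cells that the series names were not analysed here.

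Genes were the 20090 protein-coding genes of GENCODE release 44 mapped to GRCh37 (chromosomes 1 to 22 and X, 1 per symbol). A peak counted when it overlapped a window by 1 bp. Window length classes were bounded at 40, 100 and 200 kb. Island reads were taken by midpoint, filtered with filterByExpr, scaled by TMM and tested with edgeR 4.0.16. The SE of a log2 difference in reads was worked back from that test, as its absolute size over the square root of the F statistic. Over the members, replicates of a line differed by more than counting noise (chi-square per degree of freedom 19.6 in SKBR3 and 7.37 in BT474). Percent cover was computed from the deposited island positions and tested with limma 3.58.1 (eBayes with trend) for genes with cover above 0. DESeq2 1.42.0 was an alternative. The adjusted p threshold was 0.05. Both tests were run on simulated data of 2 against 2 libraries. In the reads test over 17213 genes, edgeR called 8% of genes changed 2-fold and 56% of those changed 4-fold. In the cover test over 17850 genes, limma called 16% of genes changed by 10 percentage points and 99% of those changed by 20. Far fewer genes were changed in the simulated data than were called in the real data. The cutoff after adjustment was thus stricter there, and these shares do not give the power of the tests reported above.

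Named genes were MAP3K13 and MAPK11, members with a peak in SKBR3 or in 3 or 4 lists, the 6 with most peaks in BT474 EGF, and the 6 with the largest change in each direction in the reads test. Others, such as MAPK3, MAPK9 and MAP3K10, were named after their values were seen. The members, lists and tests were chosen with earlier results of these data known.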

Additional observations from a re-analysis of the deposited data

Results flagged for a closer look

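MAPK13 was the only member whose number of HER2 peaks changed in opposite directions with EGF in the 2 lines, and this difference was not tested, since each condition had 1 list. In SKBR3 its count changed by -1 (1 peak with vehicle, 0 with EGF), and in BT474 by 1 (0 with vehicle, 1 with EGF). The 2 peaks lay at opposite ends of the gene and both ranked low in their lists, at 2336 of 2596 and 19107 of 29326. No group had the 4 samples needed for a search for outlying libraries.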

How the results depend on the processing

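With the gene body alone, SKBR3 vehicle had a peak in 1 member. With only the peaks at or above the median score of each list, 0 members had one in SKBR3 vehicle, 2 in SKBR3 EGF and 7 in BT474 vehicle, and 10.0% of the member peaks of BT474 EGF lay in BT474 islands. With equal numbers of peaks, 4 members had one in BT474 vehicle and 4 in BT474 EGF. At or above the median of SKBR3 vehicle, no member peak was left to overlap with islands. Leaving out 1 H3K4me1 library moved the share of member peaks in islands from 25 to 50% for SKBR3 EGF, from 10.6 to 12.8% for BT474 EGF, and not from 0 for both vehicle lists. Members with more reads in BT474 numbered 5 to 13 and in SKBR3 6 to 11 with 1 library left out, and members with more cover in SKBR3 2 to 4 and in BT474 4 to 6. The lone replicate is then assumed to vary like the other line. With the replicate block, 7 members had more reads in SKBR3 and 7 in BT474, and 7 more cover in SKBR3 and 7 in BT474. Differences between replicates 1 and 2 correlated at -0.0598 between the lines over 13480 genes, so the numbers do not pair the libraries. With DESeq2, 12 and 13 members passed. The other alternatives gave counts within 1.5 times. Over the gene body alone, 2 of the members that had passed changed direction: MAPK7 by reads, to -8.81 (log2, with no SKBR3 island midpoint there, so that the size rests on the prior count), and MAP3K8 by cover, to -0.36 percentage points. MAPK9, MAPK15 and MAP3K12, which had not passed by reads, passed there with the other sign, at log2 differences of -0.39, 1.45 and 0.86. Called or not, 6 members changed sign there by reads and 6 by cover. The cause was not tested. By reads, 10 of 21 called members kept their call under every alternative, and by cover 3 of 20.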
